A study of Caenorhabditis elegans with 32 samples.

Results

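H3K27ac was compared genome wide between early embryos that carry a catalytically deficient MET-2 (met-2-CD) and wild-type (WT) embryos, with 12 of the 32 libraries of the study. These are the H3K27ac immunoprecipitated (IP) and input libraries of both genotypes at 20 °C, with 3 replicates of each kind, and they were chosen by their labels. The met-2-CD strain carries the CRISPR allele met-2(gw1660), in which alanine replaces the conserved cysteine in the active site of the SET domain, and WT is the N2 Bristol strain. Embryos of both genotypes were harvested before the bean stage. Values of met-2Δ embryos, which carry the deletion allele met-2(n4256) and were kept at 20 °C, and of WT embryos exposed to 37 °C (HS) are given beside those of met-2-CD where they help to read them. The met-2-CD allele is a point mutation in 1 line, and whole embryos were used, so that fewer cells with the mark and less of the mark per cell cannot be told apart.

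MET-2 is the worm relative of the mammalian enzyme SETDB1. It mono- and dimethylates lysine 9 of histone H3 (H3K9me1 and H3K9me2), the first steps toward heterochromatin, and works together with its cofactor LIN-65 in foci of the nucleus. In worms H3K9me lies mainly on repeats and silent genes on the arms of the autosomes. Acetylation of lysine 27 of histone H3 (H3K27ac) marks active promoters and enhancers, and is made mainly by CBP-type acetyltransferases. The met-2-CD allele keeps the protein and makes it deficient in enzyme activity. This comparison therefore shows where H3K27ac differs in embryos whose MET-2 is present but catalytically deficient.

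Reads that aligned at one place were deposited as counts for 200579 windows of 500 bp (ce10), of which 28 are mitochondrial and 200551 nuclear. The IP libraries held 29983456, 21121024 and 27474318 reads in met-2-CD and 21361728, 19327992 and 26141674 reads in WT, and their input libraries between 16899918 and 25569318. Counts were scaled to the mean library total, and scaled reads always refer to these values. Enrichment is log2 of scaled IP reads over scaled input reads, each with a pseudocount of 2. Adjacent windows were joined to H3K27ac regions where 2 or more of the 12 H3K27ac IP and input pairs, of all genotypes and treatments, reached an enrichment of 1 and the scaled input averaged 10 or more (the input minimum). The 5216 regions covered 20709 windows, and the median region was 1500 bp wide. The window on chromosome III from 8376567 to 8377066, which holds 0 input reads in met-2Δ, held between 120 and 139 input reads in met-2-CD and between 89 and 126 in WT, as the labels of a point mutant and of WT imply.

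Replicate 3 of met-2-CD stood apart from the other met-2-CD replicates. The regions took 31.8% of its nuclear IP reads, against 22.8% and 22.3% in met-2-CD replicates 1 and 2, and results are therefore also given without it. The same replicate had an enrichment of at least 1 in 8.32% of the windows past the input minimum, against 4.90% and 4.85% in the others. The 3 WT replicates lay between these values, with 27.8%, 25.4% and 23.8% of reads in the regions. In the input libraries the share was between 10.9% and 11.1% in both genotypes.

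**Figure D1:**
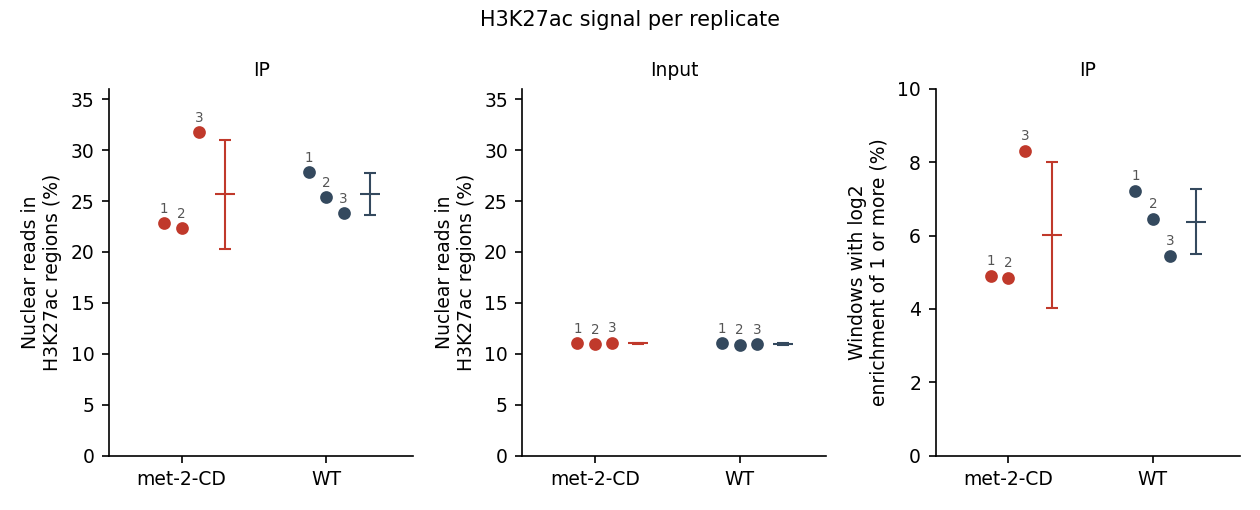
Share of nuclear reads in the H3K27ac regions in IP and input libraries, and share of windows with a log2 enrichment of at least 1 (y axes, percent), for the 3 numbered replicates of met-2-CD and of WT, with mean and SD beside them. Replicate 3 of met-2-CD lies above the other 5 IP libraries shown at 31.8%, and met-2-CD replicates 1 and 2 lie below all WT replicates.

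The share of H3K27ac reads in the regions could not be told apart between the genotypes. The regions took 25.6% ± 5.31 (SD, n = 3) of nuclear IP reads in met-2-CD and 25.7% ± 2.03 (SD, n = 3) in WT, a difference of -0.029 percentage points (two-sided exact permutation test, p = 1, where the smallest possible p is 0.1). Without met-2-CD replicate 3 the mean was 22.6% and the difference from WT -3.09 percentage points (exact permutation test, p = 0.2). Relative to the input, the level in the regions on a log2 scale was 1.05, 1.03 and 1.52 in met-2-CD and 1.335, 1.219 and 1.119 in WT. Library totals were used for scaling, and a gain shared by all windows of the genome would not be seen with them.

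Most of the windows with the mark in met-2-CD also had it in WT. Of the windows past the input minimum, 7048 had an enrichment of at least 1 in all 3 met-2-CD replicates and 8286 in all 3 WT replicates. 6057 windows were in both sets, which is 85.9% of the met-2-CD set and 73.1% of the WT set. In 53 windows all 3 met-2-CD replicates and no WT replicate reached this enrichment, and in 54 windows all 3 WT replicates and no met-2-CD replicate did. Only 1 of these 53 and 0 of these 54 windows passed the test of single windows below (edgeR adjusted p under 0.01).

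IP counts of the regions in all 12 H3K27ac IP libraries were then fitted with the quasi-likelihood model of edgeR, and a region was called at a Benjamini-Hochberg adjusted p under 0.01. One region, on chromosome V from 5080954 to 5081453, lay in a stretch without input reads in met-2-CD. It is described at the end as missing DNA, and all counts of regions leave it out. Of the other 5215 regions, 8 were called, which is 0.153%. H3K27ac was higher in met-2-CD in 7 (0.134%) and lower in 1 (0.0192%). At an unadjusted p under 0.05 there were 152 regions, fewer than the 261 that this threshold passes without any difference, and 134 of them were higher in met-2-CD and 18 lower. This balance turned round without met-2-CD replicate 3, with 88 regions higher and 295 lower at the same threshold. The median log2FC over all regions was 0.003, with quartiles at -0.06 and 0.08. In 203 regions (3.89%) all 3 met-2-CD replicates lay above all 3 WT replicates, and in 40 regions (0.767%) all lay below. This order also depended on replicate 3, since met-2-CD replicates 1 and 2 both lay above all WT replicates in 230 regions (4.41%) and both below in 1946 regions (37.3%).

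With all 3 met-2-CD replicates, the test was precise enough to limit larger changes in most regions. Intervals without met-2-CD replicate 3, where the median log2FC was -0.17, are not given. The 95% confidence interval of the log2FC lay inside a 2-fold change in both directions in 5080 regions (97.4%), and inside a 1.5-fold change in 4493 (86.2%). A 2-fold gain lay outside the interval in 5120 regions and a 2-fold loss in 5170.

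The counts depended on normalization and on single libraries. Without met-2-CD replicate 3, 2 regions were higher and 3 lower, only 2 of these 5 being among the 8, and the median log2FC over all regions was -0.17. Without WT replicate 2 a single region was called, the one named Up4 below. TMM normalization called 32 higher and 3 lower regions and DESeq2 48 and 8, and both included all 8 of the main calls. When the input of each genotype was taken into account in one model, edgeR called 0 regions with library totals, with 171 regions at an unadjusted p under 0.05 (134 higher, 37 lower), and 7 regions with TMM (6 higher, 1 lower). The log2FC over input of the 7 higher regions then lay between 0.83 and 1.01, with an edgeR adjusted p between 0.058 and 0.12, and that of the lower region was -0.84 (edgeR adjusted p = 0.086).

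**Figure D2:**
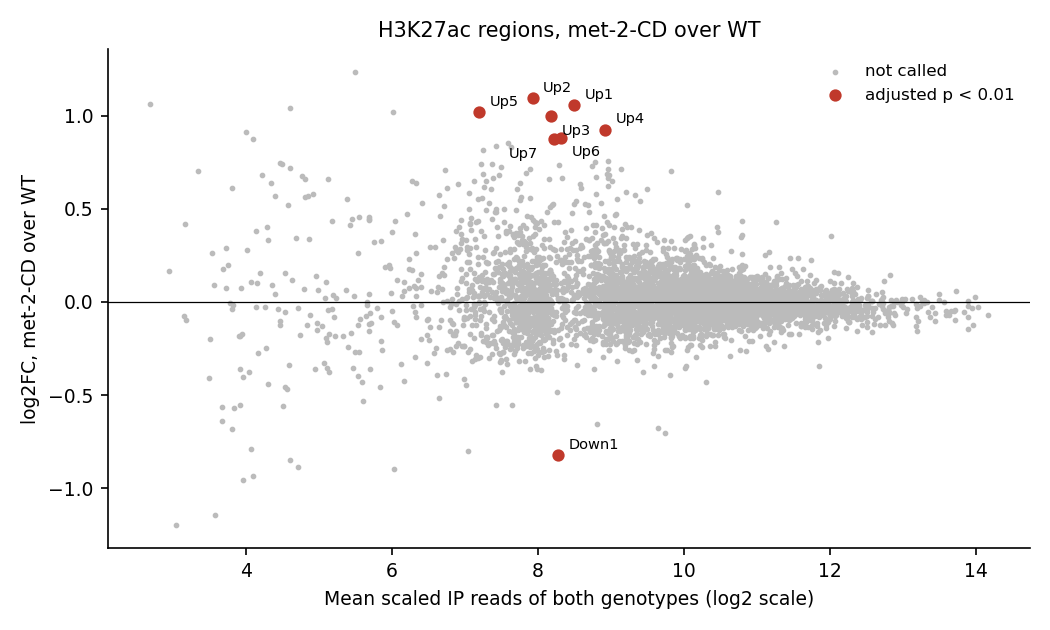
Each point is one of 5215 H3K27ac regions. The x axis gives the mean of scaled IP reads over met-2-CD and WT on a log2 scale, and the y axis the log2FC of met-2-CD over WT. The 8 called regions (red) lie at a log2FC between 0.87 and 1.09 (Up1 to Up7) and at -0.82 (Down1), while wide regions with many reads lie close to 0.

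The 7 gained regions were short and had little H3K27ac in WT. Each was 1 or 2 windows wide, as were 1931 (37.0%) of all regions. None was on chromosome X, which held 755 of the 5215 regions. The mean enrichment of the 7 gained regions over input in WT lay between -0.17 and 0.46, against a median of 1.05 over all regions. In met-2-CD it lay between 0.80 and 1.37. A region could be kept through the pairs of any group, so that a low enrichment in WT partly follows from how regions were defined. With regions defined from met-2-CD and WT pairs alone, 2 regions were called, both higher. The regions are numbered by their p-value, Up1 to Up7, and are given by position because no annotation of ce10 was used to assign genes to them.

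Up1, on chromosome I from 11684951 to 11685950, held 429.5, 461 and 572 scaled IP reads in met-2-CD, against 228, 195 and 277 in WT. The lowest met-2-CD replicate lay clearly above the highest WT replicate. The log2FC was 1.06 (edgeR, SE 0.19, adjusted p = 3.7e-05), and 0.92 (edgeR adjusted p = 0.00064) without met-2-CD replicate 3. Its scaled input reads did not differ in this way, with a log2FC of 0.10 (edgeR adjusted p = 0.92).

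Up2, on chromosome II from 2271004 to 2271503, held 294, 247 and 455 scaled IP reads in met-2-CD, against 169, 134 and 163 in WT. Replicate 3 of met-2-CD was far above the other replicates here. The log2FC was 1.09 (edgeR, SE 0.20, adjusted p = 3.7e-05), and it was 0.80 (edgeR adjusted p = 0.032) without that replicate, which ended the call.

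Up3, on chromosome I from 10953455 to 10954454, held 428, 325 and 404 scaled IP reads in met-2-CD, against 197, 182.5 and 199.8 in WT. WT replicates were close to each other, and replicate 3 of met-2-CD was not the highest. The log2FC was 1.00 (edgeR, SE 0.19, adjusted p = 0.00024), and 0.97 (edgeR adjusted p = 0.00064) without met-2-CD replicate 3. Up1 and Up3 were the gained regions that were also called without this replicate.

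Up4, on chromosome V from 19205394 to 19206393, had the most reads of the gained regions, with 502, 603 and 800.2 scaled IP reads in met-2-CD and 342, 371 and 293 in WT. Replicate 3 was again highest in met-2-CD. The log2FC of 0.93 (edgeR, SE 0.18, adjusted p = 0.00047) became 0.72 (edgeR adjusted p = 0.020) without it, and Up4 was the region still called without WT replicate 2 (edgeR adjusted p = 0.0081).

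Up5, on chromosome III from 4749083 to 4749582, was the gained region in the centre of a chromosome. It held 178, 167 and 243 scaled IP reads in met-2-CD, against 94.7, 94.8 and 100.4 in WT. The log2FC was 1.02 (edgeR, SE 0.22, adjusted p = 0.0019), with 0.83 (edgeR adjusted p = 0.076) without met-2-CD replicate 3.

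Up6, on chromosome V from 15585409 to 15586408, held 368, 373 and 497 scaled IP reads in met-2-CD, against 248, 228 and 197 in WT, a log2FC of 0.88 (edgeR, SE 0.19, adjusted p = 0.0024). Without met-2-CD replicate 3 the log2FC was 0.73 (edgeR adjusted p = 0.055). Up7, on chromosome II from 14166953 to 14167952, held 385, 312 and 462 scaled IP reads in met-2-CD, against 197, 222 and 214 in WT, a log2FC of 0.87 (edgeR, SE 0.19, adjusted p = 0.0027). Without that replicate its log2FC was 0.73 (edgeR adjusted p = 0.054). In each of the 7 gained regions all met-2-CD replicates lay above all WT replicates, as in 3.89% of all regions.

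The lower region, Down1, lay on chromosome II from 1930006 to 1931005. It held 253, 208 and 209 scaled IP reads in met-2-CD, against 390.4, 453 and 347 in WT, and the groups did not overlap. The log2FC was -0.82 (edgeR, SE 0.19, adjusted p = 0.0059), with an enrichment over input of -0.29 in met-2-CD and 0.55 in WT. The call did not survive the removal of any one replicate, with an edgeR adjusted p between 0.013 and 0.21, although the log2FC stayed between -0.92 and -0.72.

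**Figure D3:**
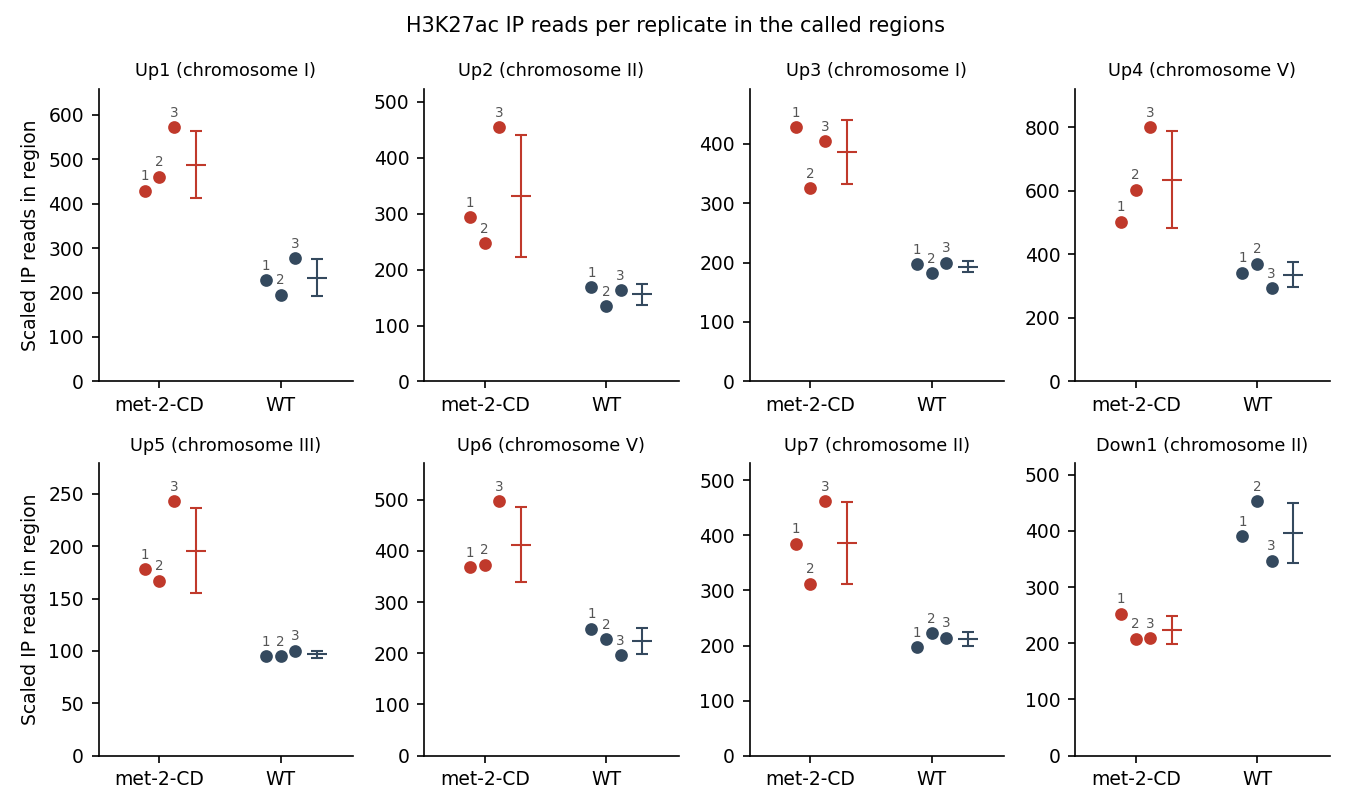
Scaled IP reads (y axis, from 0) in the 8 called regions for the 3 numbered replicates of met-2-CD (left in each panel) and WT (right), with mean and SD. The groups do not overlap in any panel, and met-2-CD replicate 3 is the highest met-2-CD replicate in Up1, Up2, Up4, Up5, Up6 and Up7.

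The regions closest to the threshold were the following. The 3 regions with the next lowest p and a positive log2FC lay on chromosome I from 2339991 to 2340490 (log2FC 0.85, edgeR, SE 0.20, adjusted p = 0.014), on chromosome I from 114001 to 115000 (0.75, edgeR, SE 0.18, adjusted p = 0.015) and on chromosome IV from 3145331 to 3146330 (0.75, edgeR, SE 0.18, adjusted p = 0.015). Each had a WT H3K9me2 domain window, as had 17.1% of all regions. Of the regions with a negative log2FC given next, those on chromosome II from 7122983 and on chromosome I from 5109980 had one too. The others had none. Among those with a negative log2FC, the region on chromosome I from 10034458 to 10035957 held 642, 485 and 818 scaled IP reads in met-2-CD, against 1238, 1099 and 843 in WT. Its log2FC was -0.71 (edgeR, SE 0.18, adjusted p = 0.029), and without met-2-CD replicate 3 it was -0.91 (edgeR adjusted p = 0.00023). On chromosome III from 13392546 to 13394045 the log2FC was -0.68 (edgeR, SE 0.18, adjusted p = 0.043), and -0.76 (edgeR adjusted p = 0.0063) without that replicate. The other region called lower without it, on chromosome II from 7122983 to 7123482, showed -0.80 (edgeR, SE 0.22, adjusted p = 0.051) with all replicates and -1.09 (edgeR adjusted p = 0.0078) without replicate 3. The region on chromosome I from 5109980 to 5110979 followed (log2FC -0.65, edgeR, SE 0.18, adjusted p = 0.055), and the 4 after it lay between -0.90 and -0.48.

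The same regions were read in the other H3K27ac groups of the fit, which share the WT replicates with met-2-CD, so that the values are not independent. At Up1 the log2FC over WT was 1.18 in met-2Δ (edgeR, SE 0.19, adjusted p = 2.0e-07) and 0.34 in HS (edgeR, SE 0.19, adjusted p = 0.14). At Up3 it was 1.05 in met-2Δ (edgeR, SE 0.19, adjusted p = 1.9e-05) and 0.01 in HS (edgeR, SE 0.20, adjusted p = 0.97). At Up5 the mark was higher in all of them, with 1.00 in met-2Δ (edgeR, SE 0.21, adjusted p = 0.00068) and 0.98 in HS (edgeR, SE 0.22, adjusted p = 7.6e-05). Of the 7 gained regions, 6 were called higher in met-2Δ, where 0.825% of all regions were, and 2 in HS, where 21.6% were. Up6 was not called in met-2Δ, with a log2FC of 0.32 (edgeR, SE 0.19, adjusted p = 0.47) beside 0.88 in met-2-CD. A direct comparison of met-2Δ with met-2-CD, added after these values were seen, did not pass the threshold at Up6 (log2FC -0.56, edgeR, SE 0.18, adjusted p = 0.63) or at any other gained region, where its log2FC lay between -0.20 and 0.21 with an SE of at most 0.20. Down1 passed the threshold in that comparison, at a log2FC of 1.17 for met-2Δ over met-2-CD (edgeR, SE 0.18, adjusted p = 7e-07). Down1 was chosen for low values in the same met-2-CD replicates, which favours such a difference. Over WT its log2FC was 0.34 in met-2Δ (edgeR, SE 0.18, adjusted p = 0.46). Over all regions the median log2FC was -0.18 in met-2Δ and 0.31 in HS.

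Single windows were tested in the same way to find changes outside the regions. Of 196105 windows past the input minimum and outside the missing DNA, 30 were called (0.0153%), of which 26 were higher in met-2-CD (0.0133%) and 4 lower (0.00204%). At an unadjusted p under 0.05 there were 8178 windows, fewer than the 9805 that this threshold passes without any difference. Of these, 4324 were higher and 3854 lower. Without met-2-CD replicate 3 there were 11862 windows at this threshold, 8015 higher and 3847 lower. The 26 higher windows had a log2FC between 0.85 and 1.81 with a median of 1.01, and formed 17 stretches of adjacent windows. Of these 26 windows 10 lay in the H3K27ac regions, as did 10.6% of all tested windows. In each of the 26 all met-2-CD replicates lay above all WT replicates, which their choice by a test of the same counts favours. The share of all tested windows in this order is not given here. Their median enrichment over input was 0.57 in met-2-CD and -0.24 in WT, and 4 of the 26 reached an enrichment of 1 in met-2-CD and 0 in WT. In 21 of the 26 the WT enrichment was below 0. For scale, 7.22%, 6.47% and 5.46% of windows past the input minimum reached an enrichment of 1 in WT replicates 1, 2 and 3. The share of all windows below 0 is not given here, and the choice by the same counts favours low WT values.

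With each replicate left out in turn, between 4 and 30 windows were called. Without met-2-CD replicate 3, 4 windows were called, all higher and all among the 26, at an edgeR adjusted p between 0.00013 and 0.0095. All 26 windows had a log2FC of at least 0.70 in that fit, with a median of 0.89. The median log2 ratio of a single met-2-CD replicate to the WT mean over these windows was 0.95, 0.84 and 1.17 in replicates 1, 2 and 3.

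The longest stretches outside the regions lay on the right arm of chromosome V. From 19770891 to 19772890, 4 adjacent windows were called and none was in a region. Together they held 742, 676 and 744 scaled IP reads in met-2-CD, against 314, 371 and 370.3 in WT, and the replicates of each genotype were close to each other. The window log2FC lay between 0.98 and 1.10. The window from 19771391 to 19771890 had a log2FC of 1.10 (edgeR, SE 0.18, adjusted p = 7.0e-05) and was called in all 6 fits that left out a replicate. In met-2Δ the log2FC of these 4 windows lay between 0.90 and 1.14 and in HS between -0.19 and -0.02. A further stretch of 4 called windows, from 19205394 to 19207393, holds Up4 and the 2 windows after it, which were too low for a region. It held 899, 971 and 1246 scaled IP reads in met-2-CD, against 562, 647 and 468 in WT. In all, 11 of the 26 windows lay within 1.51 Mb of chromosome V, from 19094894 to 20603887, where 2965 windows were tested (0.371% called higher). This span was chosen after its values were seen. In it 25.8% of the tested windows lay in WT H3K9me2 domains, and the median log2FC of all its windows was 0.04.

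On chromosome I, the 2 windows from 11017954 to 11018953 lay in an H3K9me2 domain and outside the regions. They held 406, 351 and 379 scaled IP reads in met-2-CD, against 199.7, 147 and 227 in WT. The first of them had a log2FC of 1.12 (edgeR, SE 0.18, adjusted p = 6.3e-05) and was called in 4 of 6 fits with a replicate left out. On chromosome II, the window from 2392504 to 2393003 held 124, 150.2 and 164 scaled IP reads in met-2-CD, against 73.0, 45.3 and 69.0 in WT, a log2FC of 1.21 (edgeR, SE 0.20, adjusted p = 0.00023). It had no H3K9me2 in WT, with an H3K9me2 enrichment of -1.12.

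The largest log2FC of a called window, 1.81 (edgeR, SE 0.31, adjusted p = 0.00038), came from chromosome II from 10123970 to 10124469. It held 81.2, 98.4 and 54.7 scaled IP reads in met-2-CD, against 24.3, 16.98 and 24.1 in WT. The input moved with it. The scaled input was 87.6 ± 14.7 (SD, n = 3) in met-2-CD and 42.2 ± 7.64 (SD, n = 3) in WT, an input log2FC of 1.06 (edgeR adjusted p = 0.023), and enrichment was below 0 in both genotypes, with an enrichment of -0.19 in met-2-CD and -0.89 in WT. Its part in the result was not tested. The input log2FC was above 0 in 23 of the 26 higher windows, against 48.7% of all tested windows. Its median was 0.11 in the 26, against -0.005 over all tested windows. The part of the input in these 26 calls was not tested. The input was not called in any of them. The other 25 lay between -0.11 and 0.37.

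Of the 4 lower windows, 1 belonged to Down1 and 3 lay outside the regions. The window on chromosome V from 6297949 to 6298448 held 7.30, 2.59 and 0 scaled IP reads in met-2-CD, against 49.9, 18.4 and 15.7 in WT, a log2FC of -2.96 (edgeR, SE 0.57, adjusted p = 0.0041) from few reads. The windows on chromosome I from 14700438 to 14700937 (log2FC -0.85, edgeR, SE 0.17, adjusted p = 0.0061) and from 11173954 to 11174453 (log2FC -0.88, edgeR, SE 0.17, adjusted p = 0.0069) were each called in 1 of 6 fits with a replicate left out. At the first of these the input was also lower, with 154 ± 22.1 scaled reads in met-2-CD and 217 ± 17.97 in WT (SD, n = 3 each, input log2FC -0.50, edgeR adjusted p = 0.32), and enrichment was -0.42 in met-2-CD and -0.10 in WT. The input log2FC was -0.47 (edgeR adjusted p = 0.90) at the window on chromosome V and -0.20 (edgeR adjusted p = 0.85) at the other window on chromosome I. The part of the input in these results was not tested. None of the lower windows lay in an H3K9me2 domain, although the region Down1 had a domain window beside its called window.

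The gains differed in how far they reached. Within 5 kb on each side of the called regions, 20 windows each were looked at, and those past the input minimum were tested. Around Up1, 2 of these windows had an unadjusted p under 0.05 and a positive log2FC, and the median log2FC of the flank was 0.15. The flank median was 0.14 around Up2, 0.09 around Up5 and 0.13 around Up7, with 5, 2 and 2 such windows. Around Up6 the flank had a median log2FC of 0.61 and 7 of its 14 tested windows had an unadjusted p under 0.05, all higher, although 6 windows beside it had too few input reads to be tested. Around Up4, 7 of 20 windows were higher at an unadjusted p under 0.05, and around Up3 4 of 19 windows with a flank median of 0.28. Around Down1, 5 windows were lower and the flank median was -0.18. For scale, 4324 of all 196105 tested windows were higher at this unadjusted threshold and 3854 lower. At an edgeR adjusted p under 0.01, the flank of Up4 held 2 called windows and that of Up6 1.

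**Figure D4:**
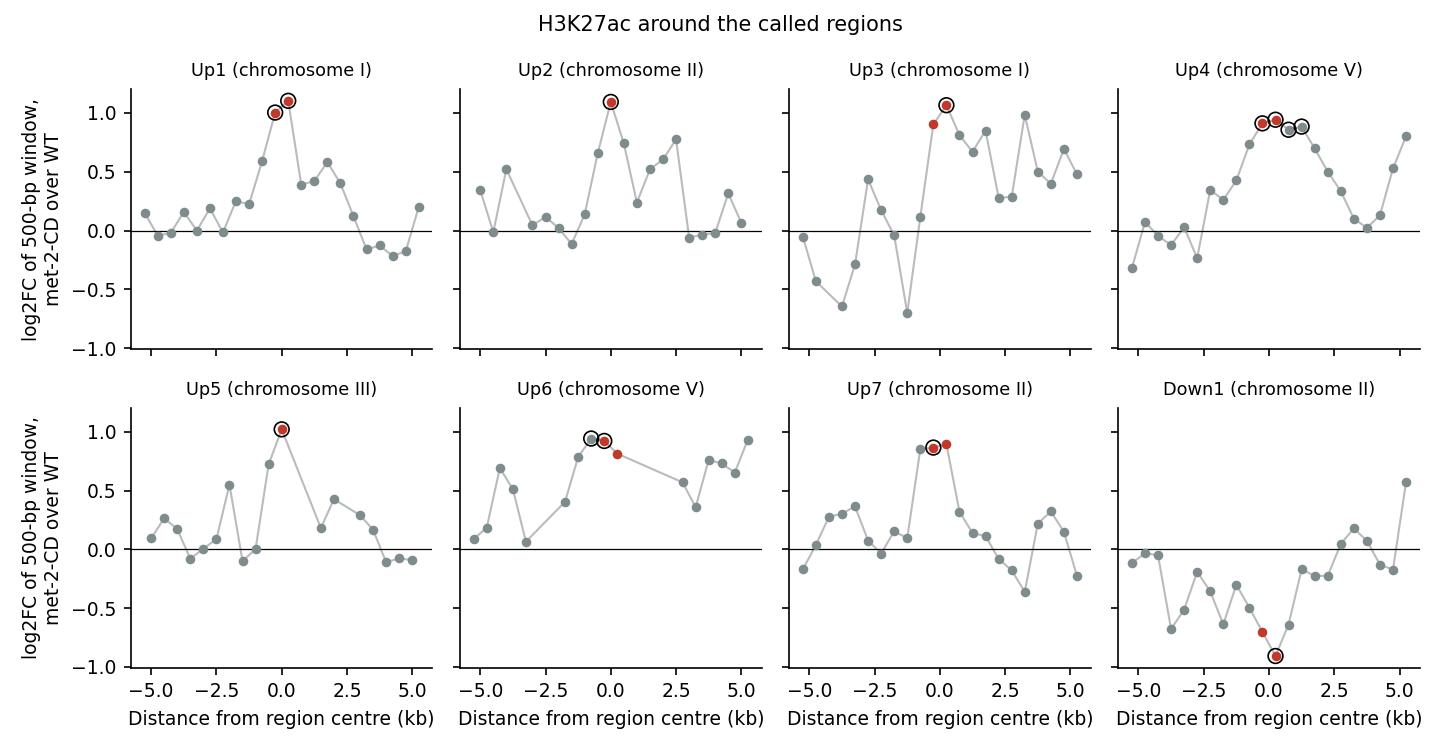
Log2FC of single 500-bp windows (y axis, met-2-CD over WT) against distance from the centre of each called region in kb (x axis). Red points lie in the region, grey points beside it, and circled points passed an edgeR adjusted p under 0.01. The gain falls toward 0 within a few windows around Up7 and to the left of Up1. To the right of Up1 it stays between 0.39 and 0.58 as far as 2250 bp. The windows next to Up5 on its right were not tested. Around Up6 the gain stays above 0 over most of the span.

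MET-2 makes most of the H3K9me2 of embryos, and the place of this mark in WT was therefore set beside the gains. H3K9me2 domains were runs of at least 3 windows with a mean enrichment of at least 1 in the 2 H3K9me2 pairs of WT at 20 °C, which gave 3688 domains of 19005 windows. H3K9me2 of met-2-CD was not analysed here. Of the 26 windows with more H3K27ac in met-2-CD, 14 lay in domains (53.8%), against 9.54% of all tested windows, and 11 of the 17 stretches had at least 1 domain window. Of the windows with an H3K9me2 enrichment of at least 2, 8 of 6295 were called higher (0.127%), and of those between 1 and 2, 10 of 26529 (0.0377%). Below -1, 1 of 57383 was called higher (0.00174%). Without met-2-CD replicate 3, 2 of the 4 called windows were in domains.

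Of the 7 gained regions 4 had a domain window, as had Down1 and 892 (17.1%) of all regions. All 3 met-2-CD replicates lay above all WT replicates in 93 of these 892 regions (10.4%) and in 110 of 4323 regions without a domain window (2.54%). With met-2-CD replicates 1 and 2 alone, both lay above all WT replicates in 11.2% of the regions with a domain window and in 3.01% of those without. Lower values were then the more frequent ones, with both replicates below all WT replicates in 38.5% and 37.1%. With all 3 replicates the reverse order held in 1.23% and 0.671%. The median log2FC was nonetheless close to 0 in both, at 0.02 and 0.001.

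The level of H3K27ac summed over H3K9me2 domains differed by less than the replicates did. It was computed per replicate as log2 of the share of nuclear IP reads over the share of input reads. In the domains it was -0.036, -0.011 and -0.087 in met-2-CD and -0.108, -0.058 and -0.066 in WT, which overlap. The difference of the means was 0.033 (exact permutation test, two-sided, p = 0.3), and without met-2-CD replicate 3 it was 0.054 (exact permutation test, p = 0.1, which is the lowest value possible with 2 against 3 replicates), with both remaining met-2-CD replicates above all WT replicates. In windows with an H3K9me2 enrichment of at least 2 the level was -0.108, -0.086 and -0.233 in met-2-CD and -0.246, -0.181 and -0.173 in WT. The difference there was 0.058 (exact permutation test, p = 0.3), and 0.103 without met-2-CD replicate 3. For comparison, the mean level in the domains was -0.022 ± 0.019 in met-2Δ and 0.162 ± 0.188 in HS (SD, n = 3 each).

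**Figure D5:**
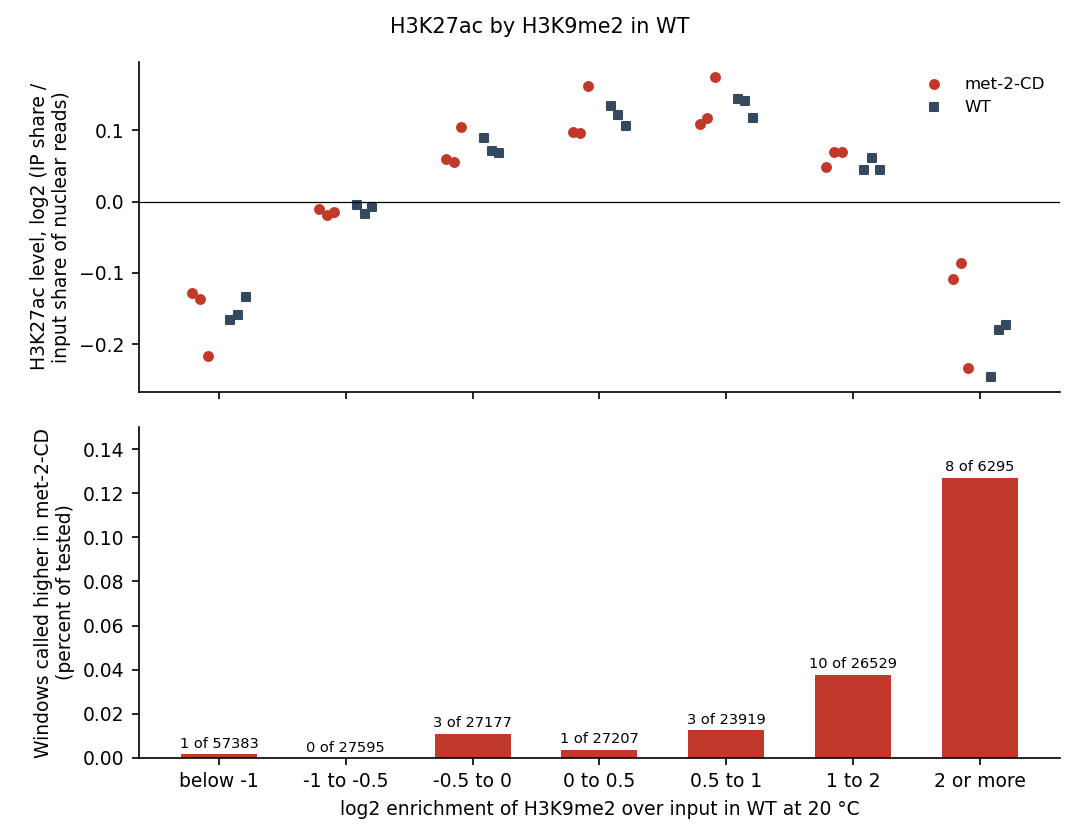
Windows are grouped by their H3K9me2 enrichment in WT at 20 °C (x axis, log2). The upper panel gives the H3K27ac level of each met-2-CD (circles) and WT (squares) replicate on a log2 scale, and the lower panel the windows called higher in met-2-CD as a percentage of those tested, with the numbers above the bars. Levels overlap in every group of windows, and called windows were most frequent at an H3K9me2 enrichment of at least 2, with 8 of 6295.

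Chromosome arms are rich in H3K9me in worms, and they held most of the called windows. Each autosome was divided by length into 3 equal parts, with both end parts taken as arms and the middle part as centre. The arms of the autosomes had 24 of the 26 higher windows and all 4 lower ones, against 54.6% of all tested windows. By chromosome, 13 of the higher windows were on V, 6 on I, 5 on II and 1 each on III and IV. Chromosome X, which has 17.8% of the tested windows, had none. All 3 met-2-CD replicates lay above all WT replicates in 6.45% of the 2854 regions on arms, in 0.747% of the 1606 regions in the centres of autosomes, and in 0.927% of the 755 regions on X. With met-2-CD replicates 1 and 2 alone the shares were 7.18% on arms, 1.06% in centres and 1.06% on X, while both lay below all WT replicates in 36.7%, 42.8% and 28.1% of these regions.

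Whole-chromosome levels did not differ by more than the replicates did. On the arms of the autosomes the level was -0.0053 ± 0.012 in met-2-CD and -0.0095 ± 0.017 in WT (SD, n = 3 each), a difference of 0.0042 (exact permutation test, p = 0.7). On chromosome X it was -0.072 ± 0.019 in met-2-CD and -0.076 ± 0.029 in WT (SD, n = 3 each), a difference of 0.0043 (exact permutation test, p = 1). Without met-2-CD replicate 3 these differences were 0.0097 and 0.012. On the arms of chromosome V, where 13 of the 26 higher windows lay, the level was -0.155, -0.138 and -0.286 in met-2-CD and -0.248, -0.195 and -0.178 in WT, and the groups overlapped.

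Most regions that passed the unadjusted threshold were narrow. Of 1010 regions of 1 window, 57 were higher and 6 lower at an unadjusted p under 0.05, and of 1989 regions of 2 or 3 windows 69 and 10. Of 1908 regions of 4 to 9 windows 8 and 2 passed this threshold, and of 308 regions of 10 or more windows none in either direction. In the widest regions the median log2 ratio to the WT mean was -0.21 and -0.23 in met-2-CD replicates 1 and 2 and 0.31 in replicate 3.

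One stretch of chromosome V has no DNA in the met-2-CD libraries and was kept apart. In the 4 windows from 5080954 to 5082953, the met-2-CD inputs held 0 reads in all 3 replicates and the met-2-CD IP libraries 4, 6 and 2 reads, against 316, 363 and 413 input reads and 439, 458 and 443 IP reads in the WT replicates of the H3K27ac experiment. The 9 H3K27ac inputs of the other groups held between 316 and 1273 reads there. The stretch was not peculiar to the mutant, because the 8 H3K9me2 libraries, which are all WT, also held 0 reads in these 4 windows. The 2 windows before the stretch and the window after it were also lower, and the input test called 7 adjacent windows lower, from 5079954 to 5083453, of 196112 tested (8 called, 0.00408%; 7 lower, 0.00357%; 1 higher, 0.00051%). IP reads in these windows were lower in met-2-CD with a log2FC between -8.29 and -3.74, which here reports DNA and not acetylation. Outside the stretch the input test called 1 window, on chromosome II from 10672468 to 10672967, with 151 ± 19.6 scaled input reads in met-2-CD and 82.1 ± 8.501 in WT (SD, n = 3 each, log2FC 0.87, edgeR adjusted p = 0.0093). The IP reads of this window were not called (log2FC 0.82, edgeR adjusted p = 0.68).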

How the data were processed

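H3K27ac ChIP-seq of early embryos gave paired-end reads, which the authors aligned to ce10 with bowtie through QuasR. What they deposited are raw counts per 500-bp window of reads with a unique alignment. Every library total is even, so mates of a pair were probably counted separately. The labels mention 2 and 3 replicates in different places, and p-values measure the spread between the deposited libraries.

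Samples were grouped by their labels and IP and input were matched by replicate number. Analyses used R 4.3.3 with edgeR 4.0.16 (quasi-likelihood fits to all H3K27ac IP, input, or IP and input libraries, totals of all windows as library sizes, Benjamini-Hochberg adjustment), limma 3.58.1, DESeq2 1.42.0 and data.table (version 1.17.8), and Python 3.11.15 with matplotlib 3.10.9. All 4 H3K27ac groups entered each fit and share its estimate of spread.

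Named regions were all called ones, the regions of lowest p until 10 were named in each direction, up to 5 called windows outside regions in each direction, stretches with 0 met-2-CD input reads and a mean of at least 50 scaled input reads in WT, and the 5 kb around called regions. Members and lists were chosen with earlier results of these data known. An annotation of ce10 was not used here, so no genes were assigned.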

Additional observations from a re-analysis of the deposited data

How the results depend on the processing

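The number of called regions, 8 with library totals, was 35 with TMM, 56 with DESeq2, 33 with loess normalization and limma, and 2 (2 higher, 0 lower) with scaling by the reads outside the regions. It was 5 with the met-2-CD and WT libraries alone, 28 at an adjusted p under 0.05, 34 and 1 with regions of an enrichment of at least 0.5 and 1.5, and 2 with regions defined from met-2-CD and WT pairs only. Called windows, 30 in all, were 16 with TMM and 21 with DESeq2, and regions called over input, 0 in all, were 7 with TMM. With each replicate left out in turn, called regions were between 1 (without WT replicate 2) and 16 (without met-2-CD replicate 2), called windows between 4 (without met-2-CD replicate 3) and 30, called input windows between 7 and 8, and regions called over input between 0 and 1. The difference in IP share lay between -3.09 and 1.62 percentage points, and the level differences between 0.016 and 0.054 in H3K9me2 domains, between -0.010 and 0.019 on chromosome X, and between -0.0052 and 0.011 on autosome arms. Without division by the input, the difference on chromosome X was -0.00041. The cause of these changes was not tested. For the 27 named regions and windows, 193 values under these alternatives kept their side of the threshold, 60 lost the call, 17 gained one and 0 changed sign. The 27 include regions that were not called in the main fit, and only called members could lose a call. With each replicate left out in turn, the 8 called regions kept the call in between 0 (Down1) and 5 (Up1) of 6 fits. The named windows kept it in between 1 and 6 of 6 fits.

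The replicate numbers were not taken to pair the samples, since deviations of same-numbered met-2-CD and WT replicates had a Pearson r across regions of 0.14, 0.23 and -0.24, and met-2-CD replicate 3 correlated best with WT replicate 1 (0.31). With a replicate block, 7 regions, 39 windows, 8 input windows and 0 regions over input were called, and paired differences gave p = 1, 0.5, 1 and 0.75 for the 4 levels (exact sign flips).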
